A study of Mus musculus with 12 samples.

Results

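The HoxA and HoxB cluster genes described here are 10 homeobox transcription factor genes, 6 from the HoxA cluster (Hoxa3, Hoxa5, Hoxa6, Hoxa7, Hoxa9 and Hoxa10) and 4 from the HoxB cluster (Hoxb2, Hoxb3, Hoxb4 and Hoxb5). They were found by gene name among the 32285 genes of the deposited count table, which lists 39 Hox genes, 21 of them from these 2 clusters. RNA was sequenced from lymphoid and multipotent progenitors of the bone marrow (BM) of wild-type C57BL6/J mice. Common lymphoid progenitors (CLPs) were sorted as negative for Ly6d, a surface protein that appears with B-lineage priming, and multipotent progenitors (MPPs), which lie upstream of them, were sorted as Flk2+. Each was taken at 1 month (1MO) and at 3 months (3MO) of age, and the 4 groups of 3 libraries are called 1MO CLP, 3MO CLP, 1MO MPP and 3MO MPP. The labels name no treatment or transgene. The study's methods describe cells sorted from the long bones of each mouse, so each library holds the RNA of a population set by its gate.

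Hox genes lie in clusters whose order along the chromosome matches the order in which they are used along the body axis, and genes with low numbers sit at the anterior end of a cluster and genes with high numbers at the posterior end. In the blood system HoxA and HoxB genes are most active in stem cells and early progenitors and are switched off as cells commit to a lineage. Their proteins bind DNA together with partner homeodomain proteins of the TALE class, such as those of the Meis family, and the active state of the clusters is kept by the MLL methyltransferase complex.

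The 6 HoxA genes lie on chromosome 6 of GRCm38 and are read from the minus strand in GENCODE M21. Hoxa3 (ENSMUSG00000079560) spans chr6:52169062-52213336, Hoxa5 (ENSMUSG00000038253) chr6:52201754-52204587 and Hoxa6 (ENSMUSG00000043219) chr6:52206288-52208722, so the annotated span of Hoxa3 encloses Hoxa5 and Hoxa6. Hoxa7 (ENSMUSG00000038236) spans chr6:52214491-52221854, Hoxa9 (ENSMUSG00000038227) chr6:52223100-52231089 and Hoxa10 (ENSMUSG00000000938) chr6:52231197-52240854. The 4 HoxB genes lie on the plus strand of chromosome 11, with Hoxb5 (ENSMUSG00000038700) at chr11:96303336-96306121, Hoxb4 (ENSMUSG00000038692) at chr11:96318267-96321638, Hoxb3 (ENSMUSG00000048763) at chr11:96323326-96347930 and Hoxb2 (ENSMUSG00000075588) at chr11:96350525-96354012. All 10 are protein coding. Exons of other genes run across some of them: the antisense RNA Hoxb3os covers 52.9% of the exon bases of Hoxb3 and 27.3% of those of Hoxb2, and the antisense RNA Hoxaas3 covers 20.4% of those of Hoxa7. Hoxb3os received 238 estimated counts over all 12 libraries and Hoxaas3 received 47. The library kit keeps the strand, but the strand setting of the counting is not given in the sources used here, so reads of these antisense partners and of Hoxb2, Hoxb3 and Hoxa7 may not have been told apart.

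Stretches before a RefSeq start are shown for Hoxa9, Hoxa10 and Hoxb4. They were chosen because these 3 genes were lower in CLPs than in MPPs, as described further on. Each is the 250 bases before a RefSeq transcription start on GRCm38.p6, written 5′ to 3′ on the strand of the gene, and none of their bases lies in a GENCODE M21 exon. The Hoxa9 stretch is chr6:52227371-52227620, the Hoxa10 stretch is chr6:52234940-52235189, before the RefSeq start nearer to Hoxa9, and the Hoxb4 stretch is chr11:96318017-96318266. The Hoxa9 and Hoxa10 stretches lie inside the GENCODE M21 spans of their genes, and the Hoxb4 stretch lies before its gene. Capitals mark matches to the letters CCAAT or TATAAA on either strand.
Hoxa9: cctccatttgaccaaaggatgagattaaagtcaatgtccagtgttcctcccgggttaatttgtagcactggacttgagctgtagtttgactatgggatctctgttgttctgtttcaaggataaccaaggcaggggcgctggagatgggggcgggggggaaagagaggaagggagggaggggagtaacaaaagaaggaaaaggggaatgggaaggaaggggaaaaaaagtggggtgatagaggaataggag
Hoxa10: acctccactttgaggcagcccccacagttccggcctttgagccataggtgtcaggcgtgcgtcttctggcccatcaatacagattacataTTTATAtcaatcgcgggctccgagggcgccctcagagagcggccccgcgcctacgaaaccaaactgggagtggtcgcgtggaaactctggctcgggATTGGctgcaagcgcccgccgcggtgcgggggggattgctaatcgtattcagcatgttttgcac
Hoxb4: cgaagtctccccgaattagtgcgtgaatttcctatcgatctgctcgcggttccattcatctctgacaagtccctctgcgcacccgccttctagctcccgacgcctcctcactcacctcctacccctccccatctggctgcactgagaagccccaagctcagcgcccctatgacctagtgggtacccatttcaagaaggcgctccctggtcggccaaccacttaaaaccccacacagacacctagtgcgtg
The Hoxa10 stretch held 1 match to CCAAT and 1 to TATAAA, and the Hoxa9 and Hoxb4 stretches held none of either. Among the 32851 RefSeq stretches of the same length, 33.8% held CCAAT and 12.4% held TATAAA. The letters TGATNNAT, a form of the site bound by Hox proteins together with TALE partners, and TGACAG, the site of Meis proteins, were searched on both strands and were not in any of these 3 windows, against 7.68% and 15.9% of all stretches. The windows differed in CpG content, with 3 CpG dinucleotides in the Hoxa9 window, 20 in that of Hoxa10 and 14 in that of Hoxb4. The window before the other RefSeq start of Hoxa10, chr6:52240855-52241104, held 7 CpG dinucleotides and no match to any of the 4 motifs. RefSeq windows of Hoxb2, Hoxb3 and Hoxb5 were not analysed here.

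The libraries held between 8889083 and 20677785 estimated counts, with a median of 13208993, and between 12380 and 15521 genes with a count. The summed markers of each sorted population followed the labels, and levels are given in CPM, counts scaled to the size of the library. The summed level of 7 CLP markers was 4188 to 5204 CPM in CLPs and 1523 to 2057 CPM in MPPs, and that of 7 MPP and stem cell markers was 752 to 881 CPM in CLPs and 2148 to 2509 CPM in MPPs. Single markers followed them less closely: Flt3 (Flk2), on which MPPs were sorted and which is on the CLP list, was at 1341 to 1524 CPM in CLPs and 1103 to 1363 CPM in MPPs, so the ranges overlapped and it made up most of the MPP sum. Ly6d, for which CLPs were sorted negative, was at 1.03 to 7.26 CPM in CLPs and 0 to 2.25 CPM in MPPs. Of the lists for other cell types, 4 T cell markers, mainly Cd4, summed to 1.22 to 5.77 CPM in CLPs and 6.91 to 20.4 CPM in MPPs, where Cd3d and Cd8a were at 0. The 4 endothelial markers, mainly Pecam1, summed to 272 to 305 CPM in CLPs and 145 to 194 CPM in MPPs, and the part of either list in the results was not tested. Library 1 of 3MO MPP stood apart from the other 11 libraries on the second principal component and had the fewest genes with a count. It had the highest level of Hoxa3, Hoxa6, Hoxb3 and Hoxb4 among all libraries and the lowest of Hoxa7. Values without it are given beside several of the results that it moved.

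9 of the 10 genes passed the filter on low counts and were tested, and only Hoxb2 did not. CPM values are further scaled by the trimmed mean of M values (TMM), a correction for differences in library composition. The estimated counts are not divided by gene length, so genes are compared with each other only per kilobase of exon. On that scale Hoxa9, a driver of progenitor self-renewal and of acute myeloid leukaemia, had the highest level of the 10 genes in MPPs, with 22.3 ± 5.26 CPM per kilobase at 1MO and 20.7 ± 1.58 at 3MO (SD, n = 3). Hoxa7, its neighbour in the cluster, reached 15.3 ± 2.06 CPM per kilobase in 1MO MPP and 13.6 ± 4.10 in 3MO MPP. In CLPs Hoxa9 and Hoxa7 were close, with 12.9 ± 0.540 for Hoxa9 and 13.1 ± 1.20 for Hoxa7 at 1MO. At 3MO they stood at 10.9 ± 2.36 for Hoxa9 and 15.7 ± 3.11 CPM per kilobase for Hoxa7. The order in 1MO CLP depends on the length used, because per kilobase of the longest transcript Hoxa9 was at 22.3 and Hoxa7 at 18.5 CPM. In 3MO CLP Hoxa9 was at 18.9 and Hoxa7 at 22.2 CPM on that scale, the same order as per kilobase of exon. Hoxb4, whose enforced expression expands blood stem cells, had the highest level of the HoxB genes per kilobase of exon in all 4 groups, from 2.49 ± 1.31 in 1MO CLP to 7.41 ± 1.76 in 3MO MPP. Its mean was above that of Hoxa10 in each group, which ran from 0.749 in 1MO CLP to 4.53 CPM per kilobase in 1MO MPP. Hoxb5 and Hoxb2 had group means of at most 0.349 CPM per kilobase.

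**Figure D1:**
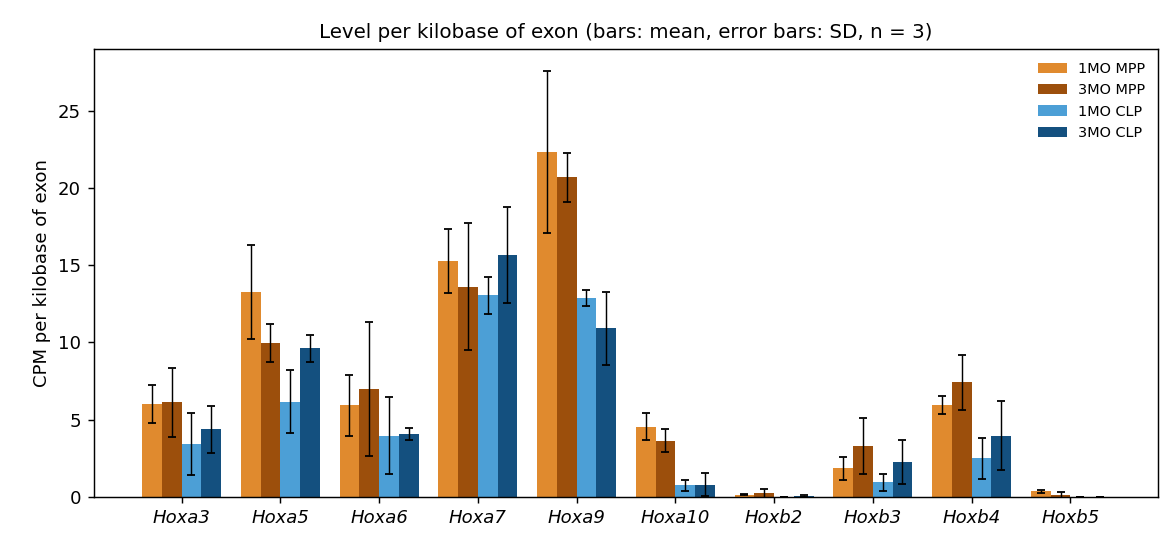
Mean level of each gene in CPM per kilobase of exon (bars) with the SD of 3 libraries (error bars), by group. Hoxa9 and Hoxa7 have the tallest bars, and the CLP bars of Hoxa9 are at 12.9 and 10.9 against 22.3 and 20.7 for MPPs.

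Over both ages, 4 of the 9 tested genes were lower in CLPs than in MPPs (Hoxa9, Hoxa10, Hoxb4 and Hoxb5) and none was higher. One of the 4, Hoxb5, passed the filter only through its MPP libraries, so its direction was set by the filter and its call is a description. The test was the quasi-likelihood test of edgeR with p-values adjusted by the Benjamini-Hochberg method over all 13367 tested genes, and a gene is called where its adjusted p is under 0.05. Of those 13367 genes, 7.3% were lower and 5.95% were higher in CLPs. The fitted log2 fold change was negative for all 9 genes, Hoxb5 included, with a median of -0.75 against -0.03 over all tested genes. That of Hoxa7 was near 0 and changed sign with the scaling. The genes were chosen with earlier results of these data known, so this contrast is a description. In these bulk samples, fewer cells that express a gene and less RNA of it per cell cannot be told apart.

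The 2 posterior genes gave the clearest separation. Hoxa9 was at 73.2, 73.9 and 68.4 CPM in the 3 libraries of 1MO CLP and at 75.9, 55.6 and 51.1 CPM in 3MO CLP. It was at 90.8, 143 and 140.3 CPM in 1MO MPP and at 109, 112 and 125 CPM in 3MO MPP. All 6 CLP libraries were below all 6 MPP libraries, while the 2 ages overlapped within each cell type. The level in CLPs was 1.81-fold lower (95% interval 1.47 to 2.24), a log2 fold change of -0.86 with a standard error of 0.14 and an edgeR adjusted p of 0.00069.

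Hoxa10, which promotes the expansion of myeloid progenitors and blocks their maturation when overexpressed, lies next to Hoxa9 at the posterior end. It was at 3.24, 2.96 and 1.14 CPM in 1MO CLP and at 2.32, 0.221 and 5.06 CPM in 3MO CLP. It was at 13.3, 13.1 and 18.1 CPM in 1MO MPP and at 14.3, 9.42 and 11.8 CPM in 3MO MPP. Again the 6 CLP libraries were all below the 6 MPP libraries, and the CLP values rest on 4 to 64 estimated counts a library. The level was 5.34-fold lower in CLPs (95% interval 2.52 to 11.3), a log2 fold change of -2.42 with a standard error of 0.51 and an edgeR adjusted p of 0.0041. The calls of Hoxa9 and Hoxa10 held in each of 12 fits that left out 1 library.

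Hoxa7, a partner of Hoxa9 in MLL-rearranged leukaemia, showed no such step. It was at 34.8, 36.5 and 41.4 CPM in 1MO CLP and at 40.7, 55.4 and 39.2 CPM in 3MO CLP. It was at 40.9, 40.1 and 50.7 CPM in 1MO MPP and at 25.5, 45.8 and 46.1 CPM in 3MO MPP. The ranges of CLPs and MPPs overlapped, with the highest library in 3MO CLP and the lowest in 3MO MPP. The log2 fold change was -0.01 with a 95% interval of -0.39 to 0.36 (edgeR adjusted p = 0.98), so the data limit the difference but do not show that the levels were equal.

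The ratio of Hoxa9 to Hoxa7 counts, a pair chosen after the values were seen and therefore given with no test, expresses this contrast within each library and does not depend on how libraries were scaled. It was 2.10, 2.03 and 1.65 in 1MO CLP and 1.87, 1.00 and 1.30 in 3MO CLP. The 3 libraries of 1MO MPP gave ratios of 2.22, 3.56 and 2.77, and those of 3MO MPP gave 4.27, 2.45 and 2.72. All CLP libraries were below all MPP libraries, with geometric means of 1.61 and 2.92.

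The 3 more anterior HoxA genes had lower fitted levels in CLPs but did not pass the threshold over both ages. Hoxa3, needed for the formation of the thymus and parathyroid in the embryo, ranged from 9.14 to 36.8 CPM in the 6 CLP libraries and from 24.3 to 51.2 CPM in the 6 MPP libraries. Its log2 fold change was -0.65 with a standard error of 0.29 (edgeR adjusted p = 0.17). Hoxa3 was called without library 1 of 1MO CLP (edgeR adjusted p = 0.036) and in both fits with a replicate block, given further on. Hoxa5, which shifts progenitors from erythroid to myeloid fate when overexpressed, ranged from 7.55 to 19.4 CPM in CLPs and from 16.1 to 28.4 CPM in MPPs, with a log2 fold change of -0.58 and a standard error of 0.21 (edgeR adjusted p = 0.096). Both genes thus overlapped between the cell types. Hoxa6, a gene of thoracic patterning, was at 0.939 to 4.89 CPM in CLPs and 3.62 to 10.5 CPM in MPPs. Its log2 fold change of -0.67 had a standard error of 0.47 (edgeR adjusted p = 0.44) and ran from -0.84 to -0.35 with 1 library left out.

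Among the HoxB genes, Hoxb4 was lower in CLPs. It was at 6.21, 9.83 and 3.11 CPM in 1MO CLP and at 16.7, 6.19 and 7.51 CPM in 3MO CLP. It was at 14.3, 17.0 and 14.4 CPM in 1MO MPP and at 22.8, 14.0 and 20.2 CPM in 3MO MPP. At 1MO the cell types were apart, and at 3MO library 1 of CLP lay among the MPP libraries. The level was 2.11-fold lower in CLPs (95% interval 1.32 to 3.38), a log2 fold change of -1.08 with a standard error of 0.32 and an edgeR adjusted p of 0.034. The call is close to the threshold: it held without library 2 of 1MO CLP, library 1 of 3MO CLP or library 2 of 3MO MPP, and without any one of the other 9 libraries the edgeR adjusted p lay between 0.0576 (without library 1 of 3MO MPP) and 0.0795 (without library 3 of 3MO CLP).

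Hoxb5, whose expression marks long-term blood stem cells, was nearly undetected in CLPs, with 0, 1 and 0 estimated counts at 1MO and 0, 0 and 0 at 3MO. In MPPs it had 11, 7 and 21 counts at 1MO and 0, 2 and 12 at 3MO, so only the 1MO groups were apart. Over both ages 53 counts in MPPs stood against 1 in CLPs, a depth-corrected ratio of 61.5 with an exact binomial 95% interval of 10.6 to 2475, which covers counting error only. At 3MO library 3 of MPP held 12 of the 14 counts, so no fold is given. Because Hoxb5 could be tested only through the MPP libraries, where it was detected, its edgeR call over both ages (adjusted p = 0.038) adds no support to these counts, and it held without library 1 of 3MO MPP (0.025) and was lost without any one of the other 11 libraries (0.0547 to 0.136).

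Hoxb3, a neighbour of Hoxb4 whose joint loss with it mildly impairs stem cell regeneration, ranged from 2.35 to 14.3 CPM in CLPs and from 5.46 to 22.5 CPM in MPPs. The ranges overlapped, and the log2 fold change of -0.75 had a standard error of 0.43 (edgeR adjusted p = 0.32). With 1 library left out the Hoxb3 value ran from -1.03 to -0.49. Hoxb2, a hindbrain patterning gene, had 0 counts in all 3 libraries of 1MO CLP and 1, 8 and 0 in 3MO CLP. It had 6, 6 and 7 counts in 1MO MPP and 0, 28 and 4 in 3MO MPP, and was too low for the test.

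**Figure D2:**
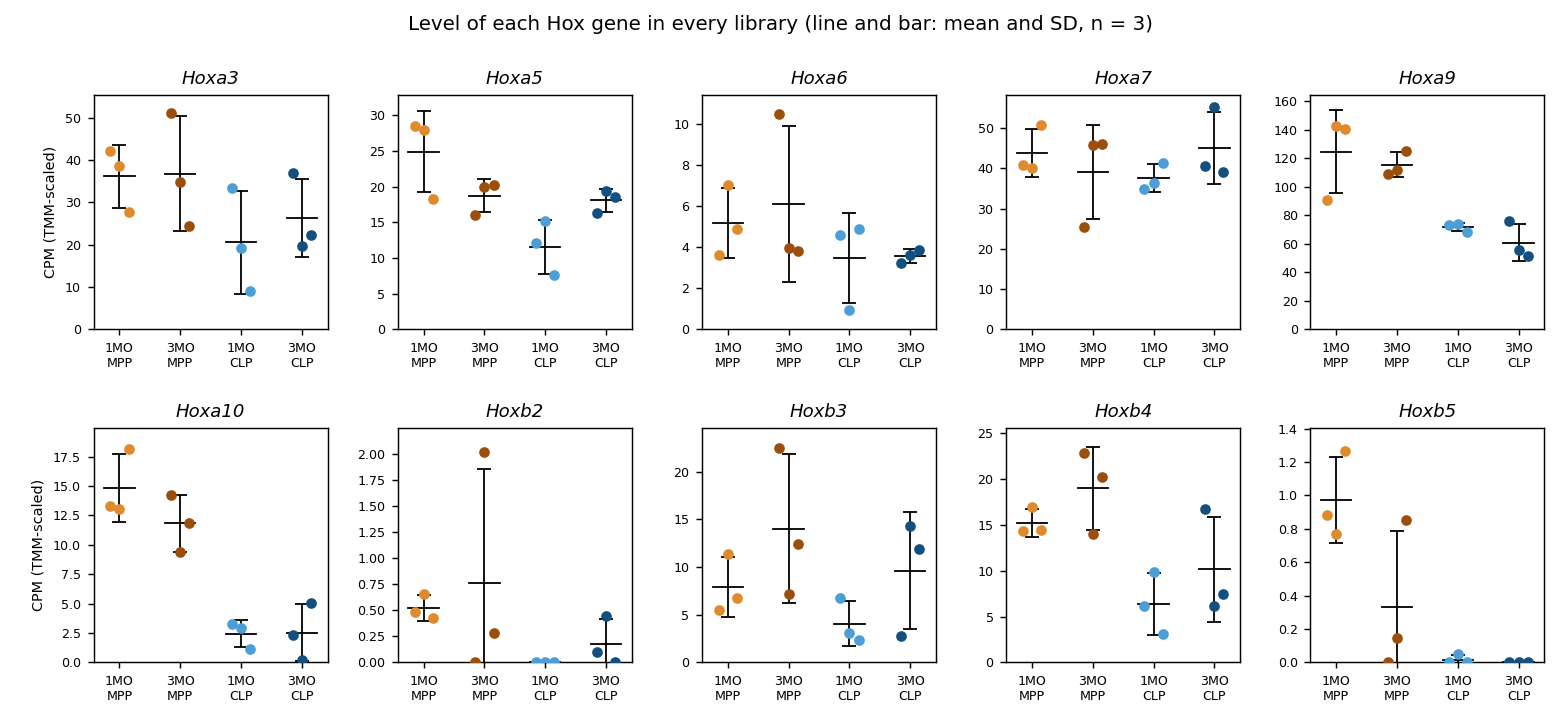
Level of each of the 10 genes in TMM-scaled CPM, 1 point a library, with the mean (line) and SD (bar, ending at 0 where it would pass below) of 3 libraries, and a separate vertical axis for each gene. The CLP points of Hoxa9 and Hoxa10 all lie below their MPP points, those of Hoxa7 lie among them, and library 1 of 3MO MPP is the highest point for Hoxa3, Hoxa6, Hoxb3 and Hoxb4.

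Within each age, the comparison of CLPs and MPPs had fewer libraries and fewer calls. At 1MO, 3 of the 9 genes were lower in CLPs, against 2.81% of all tested genes. These were Hoxa9 with a log2 fold change of -0.79 (edgeR adjusted p = 0.030), Hoxa10 with -2.60 (edgeR adjusted p = 0.048) and Hoxa5 with -1.10 (edgeR adjusted p = 0.049). Hoxb4 had a larger difference than Hoxa9, -1.25, with a wider standard error of 0.45 (edgeR adjusted p = 0.15). All 3 calls depended on single libraries. Hoxa9 kept its call without library 1 of 1MO MPP and had an edgeR adjusted p of 0.0669 to 0.146 without any one of the other 5 libraries. Hoxa10 lost its call without any one of the 6 libraries (edgeR adjusted p 0.0801 to 0.190), and Hoxa5 kept its call only without library 2 of 1MO CLP or library 3 of 1MO MPP, with 0.0972 to 0.219 otherwise. Summed markers of other cell types also separated the 1MO groups: 10 bone stroma markers were at 214 to 603 CPM in CLP and 13.2 to 81.1 CPM in MPP, and 6 B cell markers at 30.1 to 56.0 and 12.8 to 19.8 CPM. The 7 myeloid markers, mainly Mpo, were at 1010 to 1369 CPM in 1MO CLP and 730 to 883 CPM in 1MO MPP, and 4 megakaryocyte markers, mainly Itga2b, at 9.01 to 20.8 and 25.4 to 28.6 CPM. Of these lists, Igll1 was at 0 in both 1MO groups, Ppbp in 1MO CLP, and the stroma markers Lum and Prrx1 in 1MO MPP. All 4 summed levels overlapped between CLPs and MPPs at 3MO, and their part in the Hox results was not tested.

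At 3MO, 1 of the 9 genes was lower in CLPs, against 3.34% of all tested genes. Hoxa9 had a log2 fold change of -0.92 with a standard error of 0.20 (edgeR adjusted p = 0.012), and that p was 0.0544 without library 2 and 0.062 without library 3 of 3MO CLP. Hoxa10 was -2.24 (edgeR adjusted p = 0.084), a value close to that at 1MO, and was called without library 3 of 3MO CLP, where it was -3.29 (edgeR adjusted p = 0.0318). Without library 2 of 3MO CLP it was -1.67. The estimate for Hoxb4 was -0.91, for Hoxb3 -0.53 and for Hoxa3 -0.49, and without library 1 of 3MO MPP these were -0.76, -0.02 and -0.18. Hoxa5 was at -0.05 and Hoxa7 at 0.20, both with 95% intervals that span 0, and without library 1 of 3MO MPP Hoxa7 was at -0.026.

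Whether the step from MPP to CLP changed with age was tested by the interaction of age and cell type. None of the 9 genes was called by edgeR or by DESeq2, 1 had an unadjusted edgeR p under 0.05, and 0% of all 13367 genes was called by edgeR, with 429 at an unadjusted p under 0.05 and 7 called by DESeq2. The 1 gene was Hoxa5, whose log2 difference between CLPs and MPPs was 1.05 higher at 3MO than at 1MO (95% interval 0.13 to 1.96, edgeR adjusted p = 1.00). For Hoxa9 the interaction was -0.13 with an interval of -0.73 to 0.48, and for Hoxa10 it was 0.36 with an interval of -1.71 to 2.44. Both signs turned with 1 library left out, to 0.055 for Hoxa9 without library 1 of 1MO MPP and to -0.69 for Hoxa10 without library 3 of 3MO CLP. The calls made at 1MO and not at 3MO were therefore not shown to differ between the ages.

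**Figure D3:**
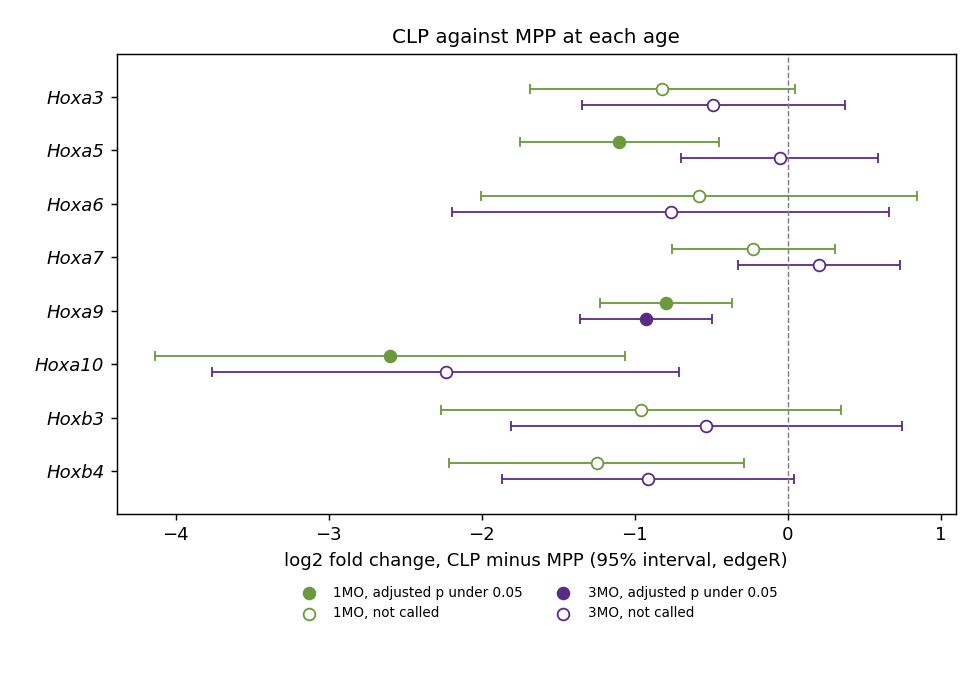
Log2 fold change of CLP over MPP at 1MO (green) and 3MO (purple) for the 8 tested genes other than Hoxb5, in cluster order, with 95% intervals computed from the edgeR test. Filled points have an adjusted p under 0.05, which holds for Hoxa5, Hoxa9 and Hoxa10 at 1MO and for Hoxa9 at 3MO, and Hoxa7 lies near 0 at both ages.

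The study asked what changes between 1MO and 3MO within each progenitor. In CLPs edgeR and DESeq2 called none of the 9 genes at 3MO against 1MO, and edgeR called 0.0748% of all tested genes. None of the 9 had an unadjusted edgeR p under 0.05, against 789 of all 13367 tested genes. Among the genes with counts in every CLP library, the largest fitted age difference was in Hoxb3, at 6.75, 3.11 and 2.35 CPM in 1MO CLP and 2.72, 14.3 and 11.9 CPM in 3MO CLP. Library 1 of 3MO CLP lay within the 1MO range, and the log2 fold change of 1.26 had a 95% interval of -0.05 to 2.57 (edgeR adjusted p = 0.86).

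Hoxa5 had 1MO and 3MO CLP libraries that did not overlap, in a comparison where the share of all genes without overlap was not counted. It was at 12.1, 15.1 and 7.55 CPM in 1MO CLP and at 16.2, 19.4 and 18.5 CPM in 3MO CLP, which put it at the level of 3MO MPP (16.1, 19.9 and 20.2 CPM) and below 2 of the 3 libraries of 1MO MPP (28.4, 27.9 and 18.3 CPM). The log2 fold change in CLPs was 0.64 with a 95% interval of -0.01 to 1.29 (edgeR unadjusted p = 0.052, adjusted p = 0.85), so the difference did not pass the test. Hoxb4 gave 0.66 and Hoxa7 0.26, while Hoxa9 gave -0.24 with an interval of -0.67 to 0.19, and Hoxa10 gave 0.04 with an interval of -1.47 to 1.54. The sign of the Hoxa10 value was not settled, since it was -1.02 without library 3 and 0.60 without library 2 of 3MO CLP. Markers of bone stroma moved with age in the same libraries: the summed level of 10 markers was 214 to 603 CPM in 1MO CLP, carried mainly by the collagen genes Col1a1 and Col1a2, and 4.74 to 10.2 CPM in 3MO CLP, where Lum, Dcn and Bglap were at 0. In MPPs it was 13.2 to 81.1 CPM at 1MO and 5.88 to 14.7 CPM at 3MO, where Col3a1, Lum, Dcn, Bglap and Prrx1 were at 0. The summed level of 6 B cell markers also moved, from 30.1 to 56.0 CPM in 1MO CLP, where Igll1 was at 0, to 16.4 to 23.5 CPM in 3MO CLP. The part of these stroma and B cell markers in the Hox levels was not tested.

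In MPPs edgeR and DESeq2 called none of the 9 genes at 3MO against 1MO, and edgeR called 0.0224% of all tested genes. None of the 9 had an unadjusted edgeR p under 0.05, against 465 of all 13367 tested genes. Hoxa9 had a log2 fold change of -0.11 (95% interval -0.54 to 0.31) and Hoxa10 of -0.33 (95% interval -1.76 to 1.11). Hoxb3 gave 0.83 and was at 5.46, 11.4 and 6.75 CPM at 1MO and 22.5, 7.19 and 12.4 CPM at 3MO, and without library 1 of 3MO MPP its log2 fold change was 0.32. Hoxa5 gave -0.41 with a 95% interval of -1.05 to 0.24. The intervals in MPPs leave room for age differences of more than 2-fold in Hoxa5, Hoxa6, Hoxa10, Hoxb3, Hoxb4 and Hoxb5, and bound those of Hoxa9 more tightly.

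**Figure D4:**
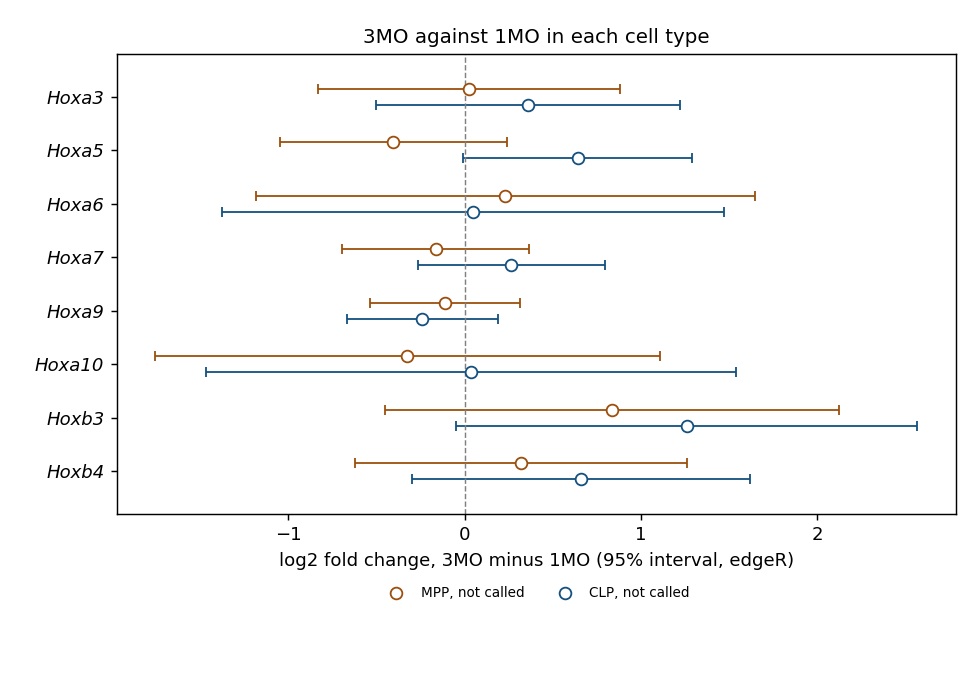
Log2 fold change of 3MO over 1MO in MPPs (brown) and CLPs (blue) for the 8 tested genes other than Hoxb5, with 95% intervals computed from the edgeR test. All points are open because no adjusted p was under 0.05, and the CLP intervals of Hoxa5 (-0.01 to 1.29) and Hoxb3 (-0.05 to 2.57) have lower ends closest to 0.

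The order of the 4 group means was mostly not resolved for single genes, and for 3 genes it turned without library 1 of 3MO MPP. For Hoxa9 and Hoxa10 the 2 MPP groups came first and the 2 CLP groups last, and only the step between MPPs and CLPs was free of overlap. For Hoxa3, Hoxa6 and Hoxb4 the order of means was 3MO MPP, 1MO MPP, 3MO CLP and 1MO CLP, and each neighbouring pair overlapped. Without library 1 of 3MO MPP the mean of 3MO MPP was 29.6 CPM for Hoxa3 and 3.89 CPM for Hoxa6, which put 1MO MPP first for both, at 36.1 and 5.17 CPM. For Hoxa7 the mean of 3MO MPP rose from 39.1 to 45.9 CPM, from the third place to the first. Hoxb3 had 3MO MPP first and 1MO CLP last, also with overlap between neighbours.

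Meis proteins are partners of Hox proteins on DNA. Meis1, the partner that acts with Hoxa9 in leukaemia, was at 109 to 120.4 CPM in 1MO CLP and 109 to 146 CPM in 3MO CLP. It was at 255 to 301 CPM in 1MO MPP and 266 to 367 CPM in 3MO MPP, so CLPs and MPPs were apart at both ages. Its log2 fold change was -1.25 with a standard error of 0.12 (edgeR adjusted p = 3.4e-06). It was not called for age in either cell type, with log2 fold changes of 0.16 in CLPs and 0.14 in MPPs (edgeR adjusted p = 0.95 and 1.00).

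**Figure D5:**
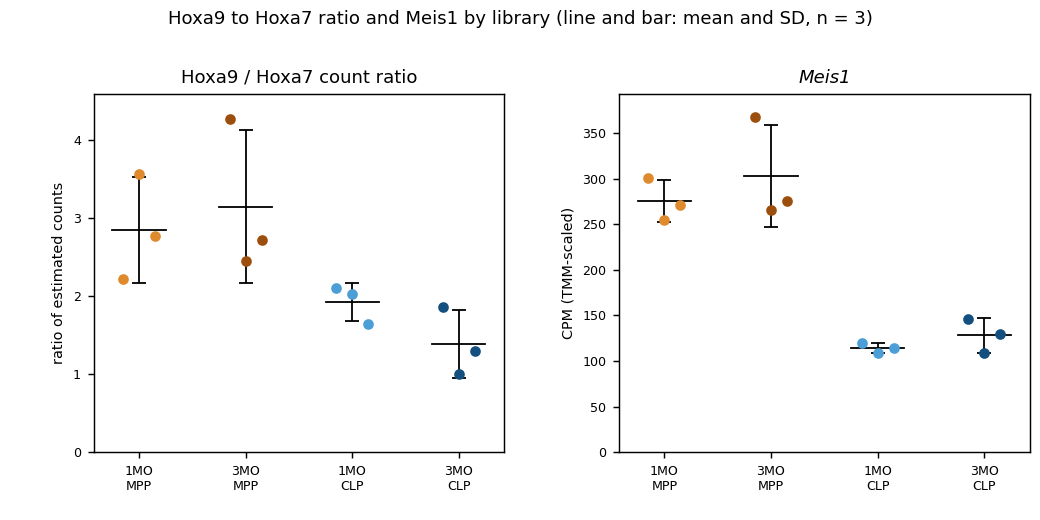
Ratio of Hoxa9 to Hoxa7 estimated counts (left), and TMM-scaled CPM of Meis1 (right), 1 point a library with the mean (line) and SD (bar) of 3 libraries. In both panels the 6 CLP points lie below the 6 MPP points, with ratios of 1.00 to 2.10 in CLPs and 2.22 to 4.27 in MPPs.

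The 10 genes held 96.5% to 97.7% of the estimated counts of all Hox genes in each library, a share of counts that are not divided by gene length. Of the other 11 HoxA and HoxB genes 3 were tested and none was called in any comparison. Hoxa4, the gene between Hoxa3 and Hoxa5, was at 0.395 to 3.33 CPM in CLPs and 2.06 to 6.45 CPM in MPPs, with a log2 fold change of -1.48 and a standard error of 0.64 (edgeR adjusted p = 0.16). The 18 HoxC and HoxD genes were at or near 0: 12 had no count in any library, none reached a mean of 1 CPM in any group, and none was tested. Of the antisense and noncoding RNAs of the clusters, 1 of the 10 in the table was tested, Hoxb3os, and it was not called (log2 fold change -1.81, edgeR adjusted p = 0.31).

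Genes that keep Hox clusters active, a list of 21 from the MLL complex, its partners and the Cdx factors, were examined in the same way. Of 18 tested, 1 was higher in CLPs, near the 5.95% of all tested genes called higher, and none was lower, and the median log2 fold change was 0.18 against -0.03 over all tested genes. The 1 gene was Aff1, a subunit of the super elongation complex, with a log2 fold change of 0.68 (edgeR adjusted p = 0.0072) and 195 to 347 CPM in CLPs against 134 to 204 CPM in MPPs. Of 11 tested genes that flank the clusters, 2 were lower in CLPs and 1 was higher, against 7.3% and 5.95% of all tested genes. Snx10, a sorting nexin gene, was lower with a log2 fold change of -0.70 (edgeR adjusted p = 0.0009), and Tax1bp1, an autophagy adaptor gene, was higher with 0.51 (edgeR adjusted p = 0.0031). Jazf1 was also called lower but passed the filter only through its MPP libraries, with 2 counts in all CLP libraries together and up to 20 in a single MPP library, and all 3 of these genes flank the HoxA cluster.

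Genes described as targets of HOXA9 and MEIS1 in blood progenitors moved both ways. Of 13 tested, 6 were higher and 5 lower in CLPs, against 5.95% and 7.3% of all tested genes. The median log2 fold change of the 13 was 0.23, against -0.03 over all tested genes. Il7r, Ebf1 and Flt3 of this list are also CLP markers and Cd34 is an MPP and stem cell marker, so these are not independent of the marker check. The receptor gene Il7r was higher with a log2 fold change of 5.11, and so were the B-lineage factor gene Ebf1 with 5.53 and the survival gene Bcl2 with 1.34. Lmo2, a stem cell regulator, was lower with -1.77 (edgeR adjusted p of these 4 genes at most 4.6e-06). None of the 13 was called for age in either cell type by edgeR.

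The non-Hox genes whose log2 CPM over the 12 libraries most resembled the mean profile of the 6 tested HoxA genes were Cd274 (Pearson r = 0.957), Adgrg1 (0.953), Vldlr (0.951), Daglb (0.945) and Ocrl (0.944). For the 3 tested HoxB genes they were A630072M18Rik (0.948), Vldlr (0.946), Tie1 (0.934), Dio2 (0.933) and H2-Q4 (0.923). Hoxb5, 1 of these 3 HoxB genes, passed the filter only through its MPP libraries, so the HoxB profile partly reflects where Hoxb5 was detected. All 9 different genes named here were lower in CLPs over both ages, a direction that their choice by likeness to these profiles made likely. The correlations are descriptions over libraries that share the same 2 cell types and differ in depth, with no test. Cd274 encodes a ligand of an inhibitory receptor and Tie1 a receptor of endothelial and stem cells. Vldlr, a lipoprotein receptor gene near to both profiles, had mean levels of 12.7 and 22.8 CPM in 1MO and 3MO CLP and of 115 and 136 CPM in 1MO and 3MO MPP.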

How the data were processed

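RNA of sorted BM progenitors was sequenced in 12 libraries, 3 in each of 4 groups. The values the authors deposited are estimated counts, corrected by them for the length of transcripts but not for library depth. Per the submitters' processing notes FastQC, UMI-tools, Trim Galore, STAR, Salmon and DESeq2 were used with mm10, and the gene annotation is not given in the sources used here. Whether reads sharing a molecular identifier were collapsed is likewise not given. Each of the 12 columns carried the name of 1 sample.

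Here the deposited estimated counts were rounded and analysed in R 4.3.3 with edgeR 4.0.16: filterByExpr (minimum count 10), TMM scaling and the quasi-likelihood test in 1 fit of 4 groups. Adjustment was over 13367 genes, with calls at an adjusted p under 0.05. The fit was also run on simulated counts as a check of the code, and the outcome is not reported here. DESeq2 1.42.0, other scalings and filters, thinned counts, replicate blocks and left-out libraries were alternatives. GENCODE M21 supplied coordinates and lengths (32158 of 32285 identifiers matched). P-values measure the spread between libraries, described as independent experiments. The depth of 8889083 to 20677785 counts limits genes with few counts, and intervals on counts cover counting error only.

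The members and the other lists, written from general knowledge, were chosen with earlier results of these data known. The genes named are all members, Meis1, up to 4 called genes a list with the smallest p, HoxC or HoxD genes reaching 1 CPM, and the 5 genes most alike to each cluster. Hoxa4, overlapping genes and markers named beside these were chosen after their values were seen. One fixed list is left out and not reported here.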

Additional observations from a re-analysis of the deposited data

How the results depend on the processing

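Over both ages the number of the Hox genes called lower in CLPs was 2 to 3 with 1 library left out, against 4 with all libraries, at 1MO it was 0 to 1 against 3, and at 3MO 0 to 1 against 1. At 3MO it was 2 without the filter, with DESeq2's Wald test and with a replicate block by pair of CLP and MPP, each time adding Hoxa10. Hoxa9 and Hoxa10 were called over both ages in all 6 other alternatives and Hoxb4 in all 6, while Hoxb5 was called in 2 of 5. Hoxa3 was called over both ages with a replicate block by number (adjusted p = 0.023), with the block by pair (0.028) and without library 1 of 1MO CLP (0.036), in edgeR. At 1MO Hoxa5 was not called with DESeq2's size factors (0.0516), without the filter (0.0772) and with only the 2 groups compared (0.0733), and Hoxa10 was not called on thinned counts (0.0521). None of the 10 genes was called for age or for the interaction under any alternative run.

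Hoxa7 had no settled sign over both ages. Its log2 fold change was 0.0045 with DESeq2's size factors, 0.0021 without the filter, 0.0042 with DESeq2, 0.0027 with the replicate block by number, 0.0075 with the block by pair, 0.031 on thinned counts and -0.13 to 0.056 with 1 library left out. At 3MO Hoxa7 ranged from -0.026 to 0.34 with 1 library left out, and Hoxa5 was at 0.042 on thinned counts and ranged from -0.15 to 0.025 with 1 library left out. For age in CLPs Hoxa10 was at -0.25 with the block by number, -0.12 on thinned counts and -1.02 to 0.60 with 1 library left out. The cause of these changes was not tested.

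Whether the replicate numbers pair libraries was not settled. Same-numbered pairs correlated over 0.1 in 5 of 18 cases (-0.034 to 0.21), and different-numbered pairs ran from -0.24 to 0.14. Over all genes the block by number called 1979 over both ages, 915 at 1MO and 1007 at 3MO. The fit without a block called 1772, 719 and 812. The block by number called 4 of the Hox genes over both ages, with Hoxa3 gained and Hoxb5 lost (edgeR adjusted p = 0.0761).

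Over all genes, calls for age in CLPs went from 10 to 46 without the filter, 65 with DESeq2, 4 with only the 2 groups compared and 6 without library 1 of 1MO CLP or library 2 of 3MO CLP. For age in MPPs they went from 3 to 26 without the filter, 35 with DESeq2 and 5 without library 2 of 3MO MPP, and for the interaction from 0 to 6, to 7 and to 1 without library 3 of 3MO CLP. DESeq2 called 1237 genes at 1MO against 719 and 1438 at 3MO against 812, and the fit of only the 2 groups called 435 at 3MO. With 1 library left out 460 to 623 were called at 1MO and 553 to 669 at 3MO.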
